A study of Mus musculus with 45 samples.

Results

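Acetylcholine is made by choline acetyltransferase (Chat) and loaded into vesicles by the transporter Slc18a3. It acts on muscarinic and nicotinic receptors and is broken down by acetylcholinesterase (Ache). Choline enters cells through the high-affinity transporter Slc5a7 and through the choline transporter-like proteins Slc44a1 and Slc44a2, and Chrm1 and Chrm3 are muscarinic receptors that couple to Gq proteins. Tuft cells, rare chemosensory cells of the epithelium, are a known non-neuronal source of acetylcholine in the gut. These 8 genes were taken by symbol from tables of 47729 genes, and all 8 had a read in at least 1 library.

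The 45 libraries were each made from cells sorted from the small intestine of 1 mouse as EpCAM+CD45+ Siglec-F+ by the labels, a gate meant for tuft cells. All mice were male C57BL/6J housed at thermoneutrality, and received a reference fat diet (RFD, 10% fat) or a high fat diet (HFD, 60% fat). The STF set held 11 libraries on RFD and 11 on HFD after 9 weeks of feeding, and the LTF set held 11 on RFD and 12 on HFD, taken here as 22 weeks from the study's methods. The labels give 9 weeks for all 45 libraries, so a difference between the sets can also be one between the 2 sets of libraries. Mice were housed several to a cage and killed on consecutive days, and the labels name neither cage nor day. Mouse numbers were therefore used as 3 number series (1 to 8, multiples of 10, and other numbers from 21 to 64) to look for a batch. STF RFD mouse 84 and LTF HFD mouse 65 fell in no series and were left out wherever the series were used.

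The libraries held between 189340 and 4690213 reads on genes, so that 3 reads were between 0.64 and 15.8 CPM (a library's reads of a gene scaled to its total) before TMM normalization, which the CPM of genes given hereafter have had. Some libraries stood apart. Under 100 TPM (a share of transcripts, which takes gene length into account) of the tuft cell marker Dclk1 was found in 1 STF RFD, 4 STF HFD and 1 LTF HFD library, and 4 libraries had a total under 0.5 of their set's median. Summed over 28 tuft cell markers, the median level was 15224 TPM on RFD and 7062 TPM on HFD in STF, and 21553 and 16991 TPM in LTF. Paneth cell markers summed to a median of 12881 TPM on RFD and 96112 TPM on HFD in STF, and to 3981 and 44171 TPM in LTF.

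Chat and Slc18a3 share a locus. In GENCODE M21 on GRCm38, Chat spans chr14:32408203-32465989 on the minus strand, and the single exon of Slc18a3 lies at chr14:32462438-32464850 on the same strand, inside an intron of Chat. The annotated exons of the genes share 0 bases. The bases just before the first GENCODE start of each gene are shown because the genes share a locus but start from different sequence (sequence from RefSeq, GRCm38.p6, minus strand, 5′ to 3′, capitals mark CCAAT in Chat and the reverse complement of GGGCGG in Slc18a3).
Chat, chr14:32465990-32466159: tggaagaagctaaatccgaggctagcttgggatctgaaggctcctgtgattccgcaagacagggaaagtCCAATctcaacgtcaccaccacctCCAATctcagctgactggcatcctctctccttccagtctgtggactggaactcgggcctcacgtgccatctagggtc
Slc18a3, chr14:32464851-32465100: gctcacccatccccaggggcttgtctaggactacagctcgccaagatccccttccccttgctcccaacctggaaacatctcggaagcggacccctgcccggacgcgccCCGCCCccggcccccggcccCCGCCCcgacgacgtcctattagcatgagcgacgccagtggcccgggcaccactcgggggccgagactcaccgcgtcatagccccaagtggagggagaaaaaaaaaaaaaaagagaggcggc
The 170 bases before Chat held 2 copies of CCAAT, 73 to 77 and 97 to 101 bases before its first GENCODE start, and none of GGGCGG. The 250 bases before Slc18a3 held 2 copies of GGGCGG on the opposite strand and none of CCAAT. The GC content was 54.7% before Chat and 66.0% before Slc18a3. Searched on both strands, CCAAT occurred in 37.4% and GGGCGG in 35.7% of 32851 promoter windows (250 bases before to 50 after a start), which are longer than the stretches shown.

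Chat was the most abundant of the 8 genes in every group. Its TPM ranged from 3.07 to 74.1 (median 50.5) in STF RFD, from 0.23 to 58.7 (median 17.5) in STF HFD, from 0.37 to 59.5 (median 37.8) in LTF RFD and from 0.43 to 43.9 (median 24.2) in LTF HFD. The choline transporter-like genes Slc44a1 and Slc44a2 followed, with group medians of 1.84 to 5.47 TPM and 1.22 to 2.80 TPM. Chat exceeded the next gene in 10 of 11, 8 of 11, 10 of 11 and 11 of 12 libraries (mean differences of 3.12, 1.62, 2.63 and 1.53 on the log2(TPM + 1) scale, two-sided exact sign-flip permutation test, p = 0.00195, 0.0273, 0.00293 and 0.00391, and 0.0137, 0.0957, 0.0164 and 0.0182 after Benjamini-Hochberg adjustment over 28 pairs of neighbours). Slc44a1 and Slc44a2 differed beyond their spread in LTF HFD, where Slc44a1 was higher in 12 of 12 libraries. They did not in the other groups (adjusted p between 0.307 and 0.830, exact test). Neighbours here and below were set by the order of median TPM in the same libraries, and their p-values are to be read with that limit.

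Below them, Chrm1 had group medians of 0.37 to 1.27 TPM, Ache of 0 to 0.59 TPM and Slc18a3 of 0 to 0.95 TPM. The lower of the Slc44a genes was above the gene that followed it in 11 of 11 libraries in STF RFD, 9 of 11 in STF HFD and 11 of 12 in LTF HFD (exact test, adjusted p = 0.00911, 0.0508 and 0.00911), and in 8 of 11 in LTF RFD (adjusted p = 0.379). Among Chrm1, Slc18a3, Ache, Chrm3 and Slc5a7, no pair of neighbours in this order differed beyond its spread in any group (adjusted p at or above 0.115, exact test). Detection followed the levels. Chat and Slc44a1 had a read in 45 of 45 libraries, Slc44a2 in 44, Chrm1 in 37, Ache in 27, Slc18a3 in 23, Chrm3 in 22 and Slc5a7 in 9. More than 5 reads in at least 6 libraries were found for 6 of the 8 genes. Chrm3, with 85 reads in all, and Slc5a7, with 29, did not pass this filter. In a fit without the filter Slc5a7 had log2 fold changes, HFD over RFD, of 0.95 (SE 1.26) in STF and 0.41 (SE 1.09) in LTF, and Chrm3 of 0.56 (SE 1.13) and 0.63 (SE 0.96), none of which passed the test (edgeR adjusted p = 0.753, 0.930, 0.858 and 0.846).

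**Figure D1:**
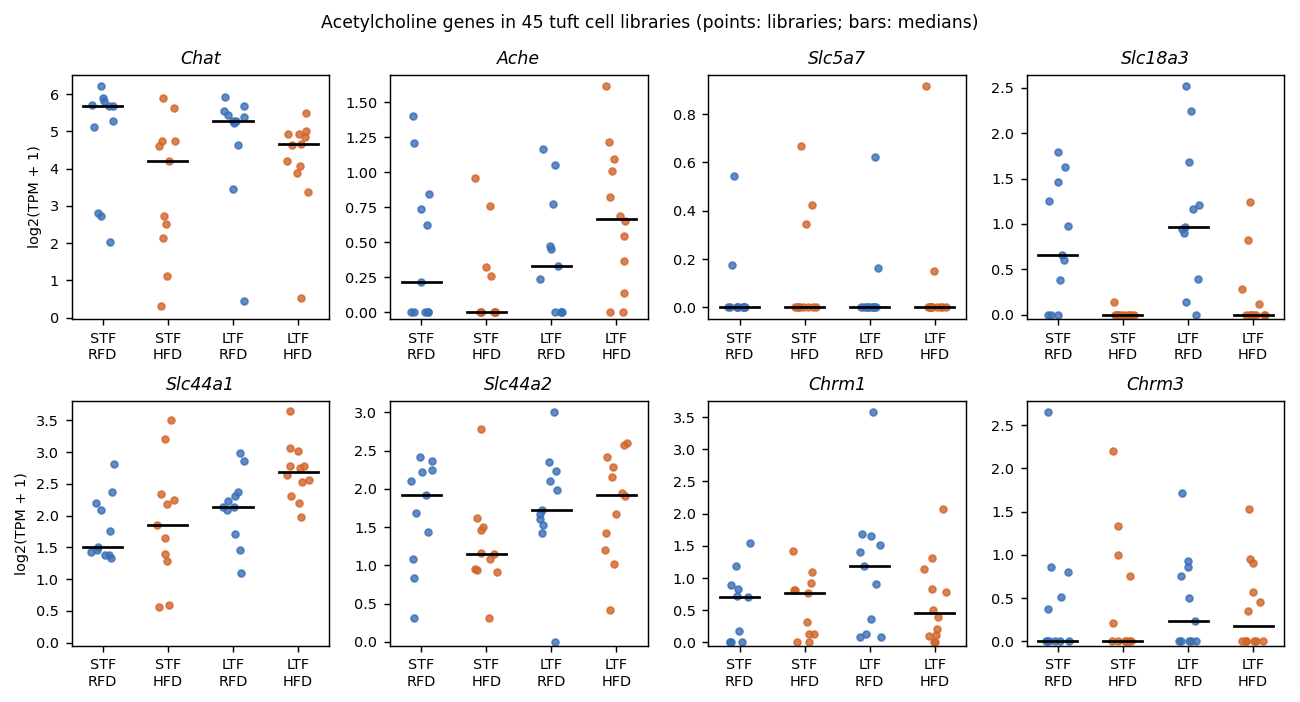
Level of the 8 acetylcholine genes as log2(TPM + 1) on the y axis, each panel with its own scale, in the 4 groups on the x axis. Points are libraries and bars are medians. Chat had the highest median in every group, and Slc18a3 had a median of 0 in both HFD groups. Slc5a7 had a median of 0 in all 4 groups, Chrm3 in both STF groups and Ache in STF HFD.

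Between the diets, 1 of the 6 genes tested was called in STF and 0 in LTF (edgeR's quasi-likelihood test, Benjamini-Hochberg adjusted p under 0.1 over 14020 genes), where 3.08% and 0.728% of all genes tested were called. The gene called was Slc18a3, which passed the filter through its RFD libraries alone. At an unadjusted p under 0.05 there were 2 genes in STF (Slc18a3 and Chat) and 1 in LTF (Slc18a3), all lower on HFD, where 18.2% and 10.2% of all genes passed and 8.28% and 5.59% passed lower on HFD, and with DESeq2 none was called in either set, with no adjusted p given for 3 of the 6 in STF and 2 in LTF. These cells were measured in bulk, so fewer cells of a type and less RNA per cell cannot be told apart.

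Slc18a3 encodes the vesicular acetylcholine transporter. All 10 libraries with more than 5 of its reads were on RFD, 5 in each set, so that it passed the filter through RFD alone, where it was high, and its call in STF is to be read with that limit. In STF it had between 0 and 18 reads per library on RFD (median 2), with a read in 8 of 11 libraries and 58 reads in all, while the 11 HFD libraries together had 1 read. The log2 fold change in STF was -4.94 (SE 0.99, edgeR adjusted p = 0.0236), and 1.24% of all genes were called lower in STF. Without the filter it was -4.87 (edgeR adjusted p = 0.0499). In CPM the 8 RFD libraries with a read were above every HFD library, and the other 3 had 0 reads like most HFD libraries. In reads, RFD mouse 3 and HFD mouse 62 tied at 1, with 0.75 and 0.23 CPM. In LTF it had between 0 and 18 reads on RFD (median 4), with a read in 10 of 11 libraries and 69 reads in all. The HFD libraries had between 0 and 4, with a read in 4 of 12 and 8 reads in all. The log2 fold change was -3.01 (SE 0.86, p = 0.00149), which did not pass the adjustment (edgeR adjusted p = 0.135). The groups overlapped in LTF, with 5 of 11 RFD libraries above every HFD library in CPM.

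Related to total reads, the RFD libraries had 51.2 times as many Slc18a3 reads as the HFD libraries in STF (95% exact counting interval 8.83 to 2057) and 10.0 times in LTF (4.80 to 24.1), intervals that cover counting error only. The difference between the sets was 2.00 on the log2 scale (95% interval -0.10 to 4.11, interaction p = 0.0684, edgeR adjusted p = 1.00). None of the 6 genes was called for a difference between the sets (0 of 6, with 0.00713% of all genes called, 0.00713% in the negative direction), and 0 of 6 had an unadjusted p under 0.05 (3.26% of all genes, 1.28% in the negative direction). DESeq2 called 0 as well.

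The call of Slc18a3 in STF depended on the libraries of low Dclk1 and on the method. Without these libraries the log2 fold change was -4.37, against -4.94 with them. The unadjusted p was then 0.00171 and the adjusted p 0.443 with edgeR, where 2 of 14020 genes were called. With limma on log2(TPM + 1) and log2(TPM + 0.1) the adjusted p was 0.225 and 0.150. DESeq2 gave log2 fold changes of -4.56 in STF and -3.07 in LTF and no adjusted p for this gene. In LTF it was called without LTF RFD mouse 3, the library with the fewest genes with a read (edgeR adjusted p = 0.0649). Within the number series the differences in log2 CPM were -2.68, -1.89 and -2.90 in STF and -0.66, -4.34 and -2.72 in LTF.

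Slc18a3 was also set against its host gene. The RFD libraries of STF had 1.81 Slc18a3 reads per 100 Chat reads when pooled, and the HFD libraries 0.0707. In LTF these were 3.42 and 0.488. Over libraries the median was 0.966 per 100 on RFD and 0 on HFD in STF, and 1.95 and 0 in LTF. This measure was chosen after the reads of Slc18a3 had been seen and is given as a description. The STF mean of 4.38 ± 10.2 on RFD (SD, n = 11) rested on 1 library of low Dclk1 with 7 Slc18a3 reads and 20 Chat reads, and without libraries of low Dclk1 the means were 1.32 ± 1.29 on RFD and 0.0484 ± 0.128 on HFD. The libraries do not mark strand, and reads of Chat pre-mRNA over the Slc18a3 exon cannot be told apart from Slc18a3 reads.

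Markers of enteric neurons, cells that use the vesicular transporter, were sparse, and so was Slc18a3. Its median was 0.58 TPM on RFD in STF, 0.95 TPM on RFD in LTF and 0 TPM on HFD in both. These medians were below the summed medians of the neuron markers. The 8 enteric neuron markers summed to a median of 2.26 TPM on RFD and 1.5 TPM on HFD in STF, and of 4.92 and 1.54 TPM in LTF, with a range of 0 to 20.4 TPM over all libraries, and 4 to 7 of the 8 had a median of 0 in a group. The 10 T cell markers summed to medians of 18.5 and 0.85 TPM in STF and of 11.2 and 4.07 TPM in LTF. Enteroendocrine markers (10 genes) summed to medians of 952 and 437 TPM in STF and of 1324 and 704 TPM in LTF. Of these, Sct alone had medians of 897 and 347 TPM and of 1066 and 696 TPM. In LTF 3 of 9 tested were called lower (Cck, Gcg and Pyy, named after their values were seen), where 0.292% of all genes were. In STF 0 were called lower, where 1.24% of all genes were. B and plasma cell markers (7 genes) summed to 162 and 2.62 TPM and to 30.8 and 15.8 TPM. Eosinophil and myeloid markers (9 genes) had 6.23 and 4.28 TPM and 11.1 and 6.995 TPM, and glia and smooth muscle markers (7 genes) 1.41 and 0.60 TPM and 2.22 and 2.08 TPM. The median summed TPM of all 6 of these lists was lower on HFD in both sets, as the median of Slc18a3 was, and their part in its difference was not tested. Goblet markers went the other way, with 3752 and 6371 TPM in STF and 2588 and 5067 TPM in LTF. So did stem and cycling markers, with 228 and 821 TPM and 90.0 and 212 TPM, and Paneth cell markers. The direction also depended on the measure. The median log2 fold change of T cell markers was -1.49 and -1.43, and that of B and plasma cell markers 0.47 and 0.89. Enteroendocrine markers had 0.62 and -3.09, and eosinophil and myeloid markers -0.45 and 2.18. The 1 enteric neuron marker tested had 0.07 and -0.77, and the 1 glia and smooth muscle marker tested -0.26 and 0.75. By this measure only the T cell list was lower on HFD in both sets.

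**Figure D2:**
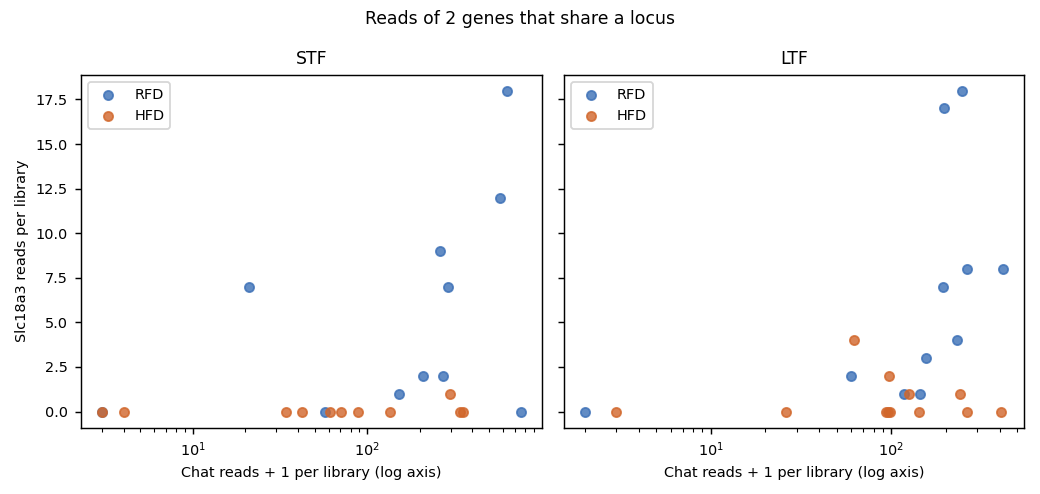
Reads of Slc18a3 per library (y axis) against reads of Chat plus 1 (x axis, log scale) in STF and LTF, with RFD in blue and HFD in orange. HFD libraries lie at or near 0 Slc18a3 reads over the whole range of Chat reads, with at most 1 read in STF and 4 in LTF.

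Chat, the enzyme that makes acetylcholine, was not called in either set. In STF its CPM ranged from 12.7 to 222 in the RFD group (median 120.5, mean 117 ± 67.7, SD, n = 11) and from 3.34 to 163 in the HFD group (median 43.0, mean 56.3 ± 52.9, n = 11). The groups overlapped, with 9 of 11 HFD libraries under the RFD median. The log2 fold change was -1.06 (SE 0.48, p = 0.0358, edgeR adjusted p = 0.241), or -0.66 without libraries of low Dclk1 (adjusted p = 0.734). In LTF the range was 0.90 to 195 CPM for RFD (median 131, mean 113 ± 57.3, n = 11) and 2.26 to 116 CPM for HFD (median 69.5, mean 64.2 ± 30.8, n = 12). All 12 HFD libraries were under the RFD median, as for 2.37% of all genes in LTF (2.84% in STF), and 8 of 11 RFD libraries were above every HFD library. The log2 fold change was -0.80 (SE 0.42, p = 0.0666, edgeR adjusted p = 0.522), or -0.93 without LTF RFD mouse 3, which had 1 Chat read (adjusted p = 0.180). The number series gave differences of -2.08, -0.64 and -0.63 in STF and 0.16, -0.98 and -0.83 in LTF.

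Chat followed the tuft cell markers from library to library. With the mean of each diet group removed, its log2 CPM correlated with the tuft cell marker score (the mean z score of 28 markers) with r = 0.97 and rho = 0.97 over 22 STF libraries, and with r = 0.83 and rho = 0.80 over 23 LTF libraries. The two-sided permutation p was 1e-05, the smallest that 100000 resamples can give, except for r in LTF (p = 0.00025), and after Benjamini-Hochberg adjustment over 24 relations r had 0.00024 and 0.003 and rho 0.00012 and 0.00012. Leaving out the 2 libraries of the most extreme scores gave r of 0.96 and 0.82. By number series rho reached 1, 0.89 and 0.71 in STF and 0.90, 0.49 and 0.29 in LTF, so the relation was weaker in the latter 2 series of LTF. The score itself was 0.40 ± 0.67 on RFD and -0.40 ± 1.06 on HFD in STF (two-sided permutation test, p = 0.0435), and 0.21 ± 0.83 and -0.19 ± 1.04 in LTF (p = 0.342).

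With the score as a covariate the log2 fold change of Chat was -0.08 in STF (edgeR adjusted p = 0.946) and -0.32 in LTF (adjusted p = 0.817). With the enterocyte marker score instead it was -1.54 in STF, where Chat was then called (edgeR adjusted p = 0.0616). That fit called 1550 of 14020 genes, 799 of them lower, against 432 without a covariate. Relative to Dclk1, Chat was lower by 0.33 in STF and by 0.43 in LTF on the log2 scale (two-sided permutation test, p = 0.243 and 0.556). With the tuft score Slc18a3 had a log2 fold change of -5.05 in STF (edgeR adjusted p = 0.0766) and -2.27 in LTF (adjusted p = 0.409). Relative to Dclk1 it was -1.46 in STF (p = 0.0815, adjusted p = 0.482) and -2.35 in LTF (p = 0.00119, adjusted p = 0.0143 over 12 comparisons, permutation test), lower in all 3 number series of each set. With a prior count of 2 in place of 0.5 these were -0.35 and -1.33 (adjusted p = 0.665 and 0.0715, permutation test). Slc18a3 was among the genes tested through its RFD libraries alone, and its values here are to be read with that limit.

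**Figure D3:**
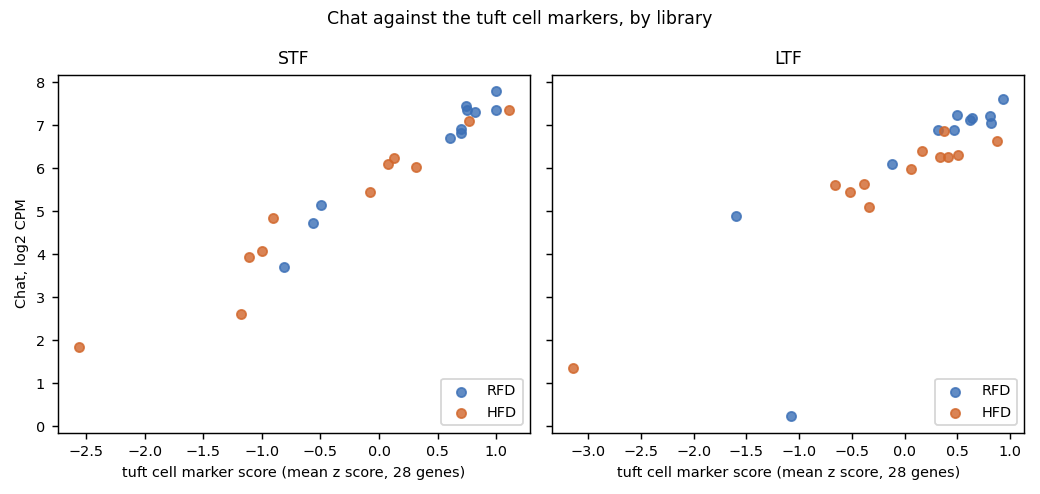
Chat in log2 CPM (y axis) against the tuft cell marker score, the mean z score of 28 marker genes (x axis), in STF and LTF, with RFD in blue and HFD in orange. Points are libraries. Chat rose with the score on both diets, and the LTF RFD library with 1 Chat read is the lowest point.

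The genes most like Chat, by Spearman rho over the 45 libraries with group means removed and among 7466 genes of at least 10 CPM, were Col15a1 (rho 0.94), Abhd16a (0.93), Trak1 (0.92), Inpp5d (0.92), Fes (0.91), Aldh2 (0.91), Cd300lf (0.91), Cdhr2 (0.91), Ndrg1 (0.91) and Itprid1 (0.91). The 28 tuft cell markers had a rho of 0.73 to 0.90 with Chat, led by Vav1 (0.90), Trpm5 (0.90) and Sh2d6 (0.89). The libraries share their tuft cell content and depth, and these values carry no p. The other genes had weaker likenesses. Slc44a1 was most like Bche (0.69), the gene of butyrylcholinesterase, Mrpl15 (0.68) and Tmod3 (0.68). Slc44a2 was most like Helz (0.62), Dhx40 (0.58) and Tsc1 (0.57), Ache had a rho of 0.58 with Hspa13 and 0.58 with Slc37a3, Chrm1 was most like Ttn (0.77), Ank3 (0.76) and Gm37985 (0.75), and Slc18a3 was most like Cdk2ap1 (0.57), Cdc42bpb (0.54) and Gpn2 (0.53).

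The choline transporter-like genes did not pass the test. The STF libraries had a mean Slc44a1 level of 13.4 ± 5.58 CPM for RFD (SD, n = 11, 6.99 to 25.5, median 13.96) and 17.8 ± 12.1 CPM for HFD (n = 11, 2.34 to 40.5, median 13.7). The LTF means were 17.98 ± 7.74 CPM for RFD (n = 11, 4.49 to 31.2, median 17.3) and 25.8 ± 10.3 CPM for HFD (n = 12, 6.81 to 47.2, median 24.8), with 10 of 12 HFD libraries above the RFD median. Its log2 fold changes were 0.46 (95% interval -0.28 to 1.20) and 0.51 (-0.05 to 1.08), with edgeR adjusted p of 0.548 and 0.555. Slc44a2 had 10.1 ± 5.66 and 7.30 ± 5.72 CPM in STF and 11.2 ± 6.52 and 10.7 ± 5.23 CPM in LTF. Its log2 fold changes were -0.42 (-1.28 to 0.44) and -0.06 (-0.90 to 0.79), with adjusted p of 0.658 and 0.978. The groups overlapped for both genes in both sets.

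Slc44a1 went against the tuft cell score in STF by rank (rho = -0.64, permutation p = 0.00173, r = -0.47, p = 0.0264, over 22 libraries), and rho was -0.57, -0.21 and -0.50 within the number series. After adjustment over the 24 relations rho had p = 0.0138 and r had p = 0.152 by permutation. In LTF rho was -0.21 (p = 0.342). On the log2(TPM + 1) scale rho in STF was 0.05, so its sign depended on the unit.

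Ache, whose product splits acetylcholine, had 24 and 19 reads in all on RFD and HFD in STF, and 21 and 36 in LTF. It had 1.17 ± 1.38 and 0.94 ± 1.45 CPM in STF and 0.97 ± 0.94 and 1.77 ± 1.35 CPM in LTF. Its log2 fold changes were -0.28 (-2.32 to 1.76) and 0.81 (-0.60 to 2.22), with edgeR adjusted p of 0.923 and 0.755. The intervals allow changes of more than 1 on the log2 scale in either direction in STF. An exon of Ache shares 98 bases with Gm42456 on the opposite strand, and without strand reads of the pair cannot be told apart. The same holds for 310 exonic bases of Slc44a1 shared with 1700060J05Rik and 329 of Chrm1 shared with Gm22820.

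The receptors were sparse. Chrm1 had 40 reads on RFD and 66 on HFD in STF, and 138 and 58 in LTF, where 1 RFD library held 70. Its log2 fold changes were 0.09 (-1.79 to 1.96) and -1.39 (-3.01 to 0.22), with edgeR adjusted p of 0.977 and 0.586. Chrm3 had between 0 and 17 reads per library, with a read in 5 of 11 libraries on each diet in STF and in 6 of 11 and 6 of 12 in LTF. The high-affinity choline transporter Slc5a7 had a read in 2 and 3 of 11 libraries in STF and in 2 of 11 and 2 of 12 in LTF, with at most 8 reads in a library.

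**Figure D4:**
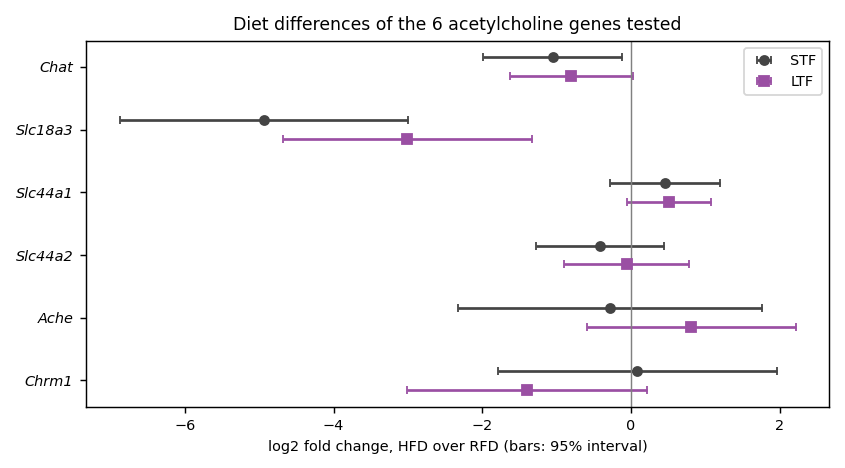
Log2 fold change, HFD over RFD (x axis), of the 6 acetylcholine genes tested (y axis), from edgeR. Bars are approximate 95% intervals derived from its fold change and F statistic. Circles are STF and squares LTF. The bars of Slc18a3 lie below 0 in both sets and those of Chat in STF, and all others reach 0.

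Around these genes, 57 further genes of the pathway in 7 lists had a read, and 34 were tested. Of the 6 genes tested for choline uptake, the most abundant were Slc44a4 and Slc44a3, with log2 fold changes of -0.49 and 0.02 in STF and -0.28 and -0.08 in LTF. Of 10 genes that use or oxidise choline, the choline kinase gene Chkb had medians of 93.95 and 44.2 TPM in STF and 123 and 88.2 TPM in LTF, with log2 fold changes of -0.69 and -0.60 (edgeR adjusted p = 0.188 and 0.270) and 10 of 11 and 11 of 12 HFD libraries under the RFD median. Chdh, the choline dehydrogenase gene, had -0.39 and -0.18.

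For breakdown, Bche had medians of 4.39 and 5.97 TPM in STF and 7.06 and 14.4 TPM in LTF, above Ache in every group, with log2 fold changes of 0.77 and 0.76 (edgeR adjusted p = 0.377 and 0.615), and Colq, which anchors acetylcholinesterase, had -1.02 and -0.94. Among the other muscarinic receptors Chrm2 had -1.03 and -3.31 (adjusted p = 0.672 and 0.182) with a read in 20 of 45 libraries, and Chrm4, with a read in 13, was not tested. All 16 nicotinic subunit genes had a read and 4 were tested, of which Chrnb1 and Chrnb2 were the most abundant, at 1.04 and 0.90 TPM over all libraries, with log2 fold changes of -1.82 and -1.03 in STF and -0.73 and 0.46 in LTF. The receptor chaperone Ric3 had -1.45 and -1.43 and the modulator Lypd1 -0.60 and -0.45. All 9 genes of Gq signalling were tested, with Gna11 at -0.18 and -0.03 and the calcium channel Itpr2 at -1.17 and -0.46. None of the pathway genes named here passed the test in either set.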

How the data were processed

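RNA of 45 libraries, each of cells sorted from 1 mouse, was sequenced by Smart-seq2. Per the labels and the study's methods, the authors trimmed reads with Cutadapt 1.15, aligned them with STAR 2.6.0 and counted them with RSEM, with GRCm38 named in the submitters' processing notes. The deposited expected counts, 8.79% of them above 0 not whole, were rounded. The deposited TPM were used for levels. Further columns of no listed sample, 24 in number, were not used, and the authors' weighting by cell type and SAM-seq test were not repeated. Of 47729 genes, 11557 had no read, and 14020 with more than 5 reads in at least 6 libraries were tested.

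Diets were compared in each set with edgeR 4.0.16 (TMM, quasi-likelihood test with its default options, Benjamini-Hochberg adjustment over all genes tested, threshold 0.1) in R 4.3.3, and the sets by an interaction over all libraries. The fit was checked on simulated counts in which only genes of higher level were changed, so the check does not cover genes as low as Slc18a3. CPM are TMM-normalized, and log2 CPM used a prior count of 0.5. Permutation tests drew 100000 resamples. DESeq2 1.42.0 and limma 3.58.1 were alternatives. The 8 genes, the pathway lists and the marker lists were chosen with earlier results of these data known. Named pathway genes were those called in either set and the 2 of highest median TPM in each list. Beside each gene of the 8, those of highest Spearman rho were named, 10 for Chat and 3 for each other gene tested. Some results that these rules name are not reported here. Leaving out libraries of low Dclk1 or LTF RFD mouse 3, the reads of Slc18a3 per 100 Chat reads and the edgeR options were added after seeing the data. Of edgeR's options 16 combinations per set were run after the calls of the default fit had been seen. The default was kept, and was not chosen by its calls.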

Additional observations from a re-analysis of the deposited data

How the results depend on the processing

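No paired analysis was possible because the mice of the 2 diets in a set share no number. With neither cage nor day named, the tests took the mice of a group as independent, and their p-values do not allow for shared cages. Over all genes the count called in STF moved from 432 to 1536 with DESeq2, 259 without a filter, 17 with the tuft score and 1550 with the enterocyte score as a covariate, 11 and 5 with limma on log2(TPM + 1) and log2(TPM + 0.1), 664 with one fit over all 45 libraries, 2 without libraries of low Dclk1 and 1601 with edgeR's bias-adjusted quasi-likelihood. In LTF it moved from 102 to 351 with DESeq2, 163 with the number series, 154 with the tuft score, 47 and 13 with limma, 228 with the bias-adjusted test and 239 without LTF RFD mouse 3. The cause was not tested. The 16 combinations of edgeR options called 430 to 1611 genes in STF and 99 to 237 in LTF. Slc18a3 was called in 16 of them in STF (adjusted p 0.0236 to 0.0341) and in 8 in LTF (0.0316 to 0.152), and Chat in 0. All 16 used the filter that Slc18a3 passed through its RFD libraries alone. The interaction was called for 1 gene, Nts, named after its values were seen, and for 67 genes without a filter and 5 with the bias-adjusted test. It was called for 0 with DESeq2, the number series, the tuft score, limma on either scale, robust estimation, or without libraries of low total or low Dclk1; 457 genes had an unadjusted p under 0.05 in the default fit.

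Of the 6 genes, Slc18a3 in STF lost its call under limma and without libraries of low Dclk1, and kept it under the other alternatives that gave an adjusted p. All of these but the fit without a filter used the filter that it passed through its RFD libraries alone. DESeq2 gave no adjusted p for 3 genes in STF and 2 in LTF. Some values changed sign, none of them of a difference between diets or sets that was called. In STF these were Ache with the enterocyte score (0.0035), Chrm1 with DESeq2 (-0.0334, no adjusted p given), with DESeq2 size factors in edgeR (-0.0469) and with the tuft score (-0.23), and Chat set against Trpm5 in place of Dclk1 (0.16). In LTF it was Slc44a2 without a filter (0.0239), with the tuft score (0.0492) and the enterocyte score (0.069), without libraries of low total (0.0118) and with limma (0.0174 and 0.15). In the interaction these were Chat (-0.00023) and Slc44a1 (-0.0094) without libraries of low Dclk1, Slc44a1 without LTF RFD mouse 3 (-0.0038) and Slc18a3 with limma (-0.11 and -0.0132, against 2.00 with edgeR). On the log2(TPM + 1) scale rho changed sign for the tuft score with Ache (0.0075) and Slc44a1 (0.052) in STF and Slc44a1 (0.19) and Chrm1 (0.0148) in LTF, and for the enterocyte score with Chat in STF (0.13). None of these passed its test, except rho of Slc44a1 with the tuft score in STF on log2 CPM. Slc18a3 was called in LTF with the bias-adjusted test and without LTF RFD mouse 3, and Chat in STF with the enterocyte score. With 1 to 8 reads of Slc18a3 in an HFD group, depth limits the size of its difference.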
